A study of Danio rerio with 12 samples.

Results

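The transcripts described here encode the proteins of the cytosolic ribosome, measured in the zebrafish pineal gland after a light pulse and in darkness. They were chosen by name: probe sets with exactly 1 platform symbol that begins with rpl or rps followed by a digit, p or a, without the rps6k kinases and symbols ending in l1 or l2, and with a mean signal of at least 58 over 12 arrays. The name pattern matched 84 probe sets, of which 5 were rps6k kinases, 2 ended in l1 or l2 and 1 lay below the minimum signal. This left 76 of the 10795 probe sets with 1 symbol. Among the 76, 2 probe sets belong to rps19bp1, whose product binds the ribosomal protein Rps19 and is not itself a ribosomal protein, so they are given apart. The other 74 probe sets stand for 71 genes, with 44 probe sets for 43 genes of the large subunit and 30 probe sets for 28 genes of the small subunit. The members nearest above the minimum were both rps19bp1 probe sets, with mean signals of 75.1 and 111, and the one below it was a second rpl21 probe set with 26.4.

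Light pools came from adult males and females of the transgenic line Tg(aanat2:EGFP)Y8, 0.5 to 1.5 years old, kept dark from the evening before and given light of 12 W/m2 during the last 1 h before sampling. Dark pools came from fish of the same line, age and sexes that stayed in darkness. All fish were raised at 28 °C in cycles of 12 h light and 12 h dark, and all carried the transgene, in which aanat2 regulatory regions drive EGFP and make the gland visible for dissection. Sampling began at CT2 (circadian time, in hours) and went on every 4 h to CT22, with 1 array for each group and time, and each array held RNA from a pool of 12 glands. A pool holds every cell of the dissected tissue, so fewer cells of a type and less RNA per cell cannot be told apart.

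The ribosome makes all cytosolic proteins: its small subunit reads the messenger RNA and its large subunit joins the amino acids. Most of its proteins are needed in equal numbers, and in vertebrates their messenger RNAs share a pyrimidine-rich start that places their translation under the TOR kinase, acting in part through Larp1. The levels of these messenger RNAs are among the steadiest in many tissues, and several of them, such as rpl13a and rplp0, are widely used as reference genes. The pineal gland of fish senses light itself and holds a circadian clock that times melatonin synthesis.

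Ribosomal protein probe sets were among the brightest on the arrays. Of the 74, 67 had a mean signal above 914, the 90th percentile of all 9301 kept probe sets, whose median was 187. Mean signals spanned 354 to 10648 in the large subunit, with a median of 2690, and 407 to 14193 in the small subunit, with a median of 3330. Signal depends on each probe set's sequences, so these are brightness values and give no order of abundance between genes. The brightest were rpl38, rpl8 (next to the site of peptide bond formation) and rpl3 in the large subunit, and rps2 (at the entry of the messenger RNA channel), rps16 and rps15 in the small one. The dimmest were rpl27a, rpl21 and a second rpl3 probe set, and rps27l, rps10 and 1 of the 3 rps27.1 probe sets. All 74 passed the filter on low values, as their choice by a minimum mean signal made likely. Their spread over the 12 arrays, as the SD of log2(signal + 13), had a median of 0.35 and ranged from 0.19 to 0.77. The median over all kept probe sets was 0.34, but most of these are dimmer, and no comparison at like brightness was made. Defining genes of the labelled tissue were measured on every array: aanat2 had signals of 636 to 4682 in light and 586 to 2728 in the dark, and the pineal opsin gene exorh 858 to 1966 in light and 720 to 2081 in the dark. The steadiest members were the bright rpl3 probe set (0.19), rpl37 and rpl29, and rps25, rps2 and rps23. The most variable were rps10 (0.77), rps9 (0.66) and rps15 (0.62), and in the large subunit rpl11 (0.56), rpl17 (0.48) and rpl21 (0.47).

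The light differences of the ribosomal protein transcripts went in both directions. On the mean of the 6 within-time differences, 33 of 74 probe sets were higher in light and 41 lower, with a median of -0.05 on the log2 scale, against 0.02 over all kept probe sets. The large subunit had 20 higher and 24 lower (median -0.05, range -0.52 to 0.70) and the small subunit 13 higher and 17 lower (median -0.03, range -0.46 to 0.80). Without the CT22 pair the small subunit's median was 0.09. In the limma fit over all kept probe sets, at an adjusted p of 0.05, 2 of 74 were called higher in light, rpl35a and rpl31, where 1.58% of all kept probe sets were. None of the 74 was called lower in light, against 0.731% of all kept probe sets. At an unadjusted p under 0.05, 26 of the 74 differed (35.1%), 13 higher and 13 lower in light, against 17.5% of all kept probe sets. The median size of the light difference was 0.29 for the members and 0.19 for all kept probe sets. The members are brighter than most kept probe sets and vary together over the arrays, so these comparisons are not matched and are not tests.

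**Figure D1:**
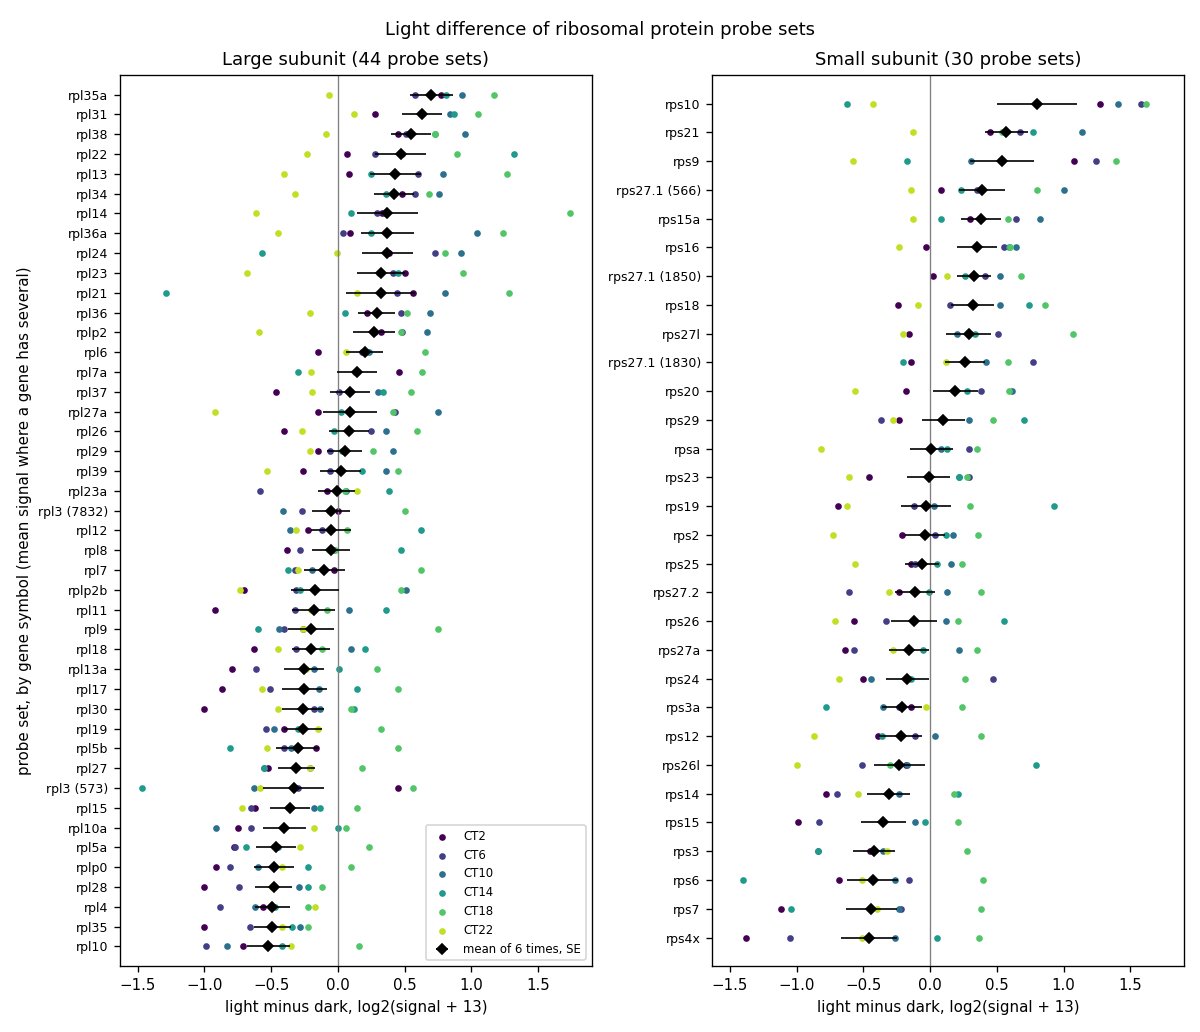
Light minus dark difference of each ribosomal protein probe set on the log2(signal + 13) scale, with large subunit members at the left and small subunit members at the right. Coloured points are the 6 circadian times and black diamonds with bars their mean and SE; the means run from -0.52 to 0.80, the CT18 points lie mostly to the right of 0 and the CT22 points mostly to the left.

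Of the 2 called members, rpl35a encodes a large subunit protein whose human counterpart is mutated in some cases of Diamond-Blackfan anaemia. Its signal was 3103 at the lowest, 3289 at the median and 3803 at the highest of the 6 light arrays, against 1622, 1963 and 3284 on the dark arrays. The dark array of CT22, with 3284, lay within the light range, and the other 5 dark arrays, at most 2218, lay below every light array. The difference was 0.70 ± 0.16 on the log2 scale (SE, n = 6 times), 1.62-fold higher in light (adjusted p = 0.043), higher at 5 of 6 times and -0.07 at CT22.

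The other called member, rpl31, encodes a protein at the rim of the tunnel through which the nascent chain leaves the ribosome. Its signal was 2518 at the lowest, 2714 at the median and 3004 at the highest light array, against 1368, 1784 and 2365 on the dark arrays. The groups did not overlap, and the dark array nearest to the light arrays was again that of CT22. The difference was 0.63 ± 0.15 (SE, n = 6 times), 1.55-fold higher in light (adjusted p = 0.0486), higher at all 6 times and 0.12 at CT22. It was the only one of the 74 whose light arrays all lay above the dark arrays, where 0.753% of all kept probe sets did so. No member had all light arrays below all dark arrays, against 0.473% of all kept probe sets.

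Both calls were lost when a technical measure entered the model, where calls over all kept probe sets also became few. The mean log2 signal of 18 probe sets for spiked-in control transcripts was 10.27 to 11.18 on the light arrays and 10.59 on the dark array of CT22, but 9.53 to 9.78 on the other 5 dark arrays. With that level in the model, the light difference of rpl35a was 0.28 ± 0.25 (adjusted p = 0.741) and that of rpl31 0.20 ± 0.22 (adjusted p = 0.803). In the same model 0.0538% of all kept probe sets were called higher in light, against 1.58% without the level. Another model held the 2 classes of arrays, high and low in that level, with a 24 h cosine in place of the time block. In it the differences of rpl35a and rpl31 were 0.03 ± 0.24 and 0.18 ± 0.24. They rest on the dark array of CT22, the only dark array in the high class. The difference between 3' and 5' probe sets of GAPDH, a measure of RNA quality, was 4.32 to 6.69 in light and 5.27 to 5.84 in the dark on the log2 scale. Its part in the calls was not tested. The part of the spiked-in level in the 2 calls cannot be told apart from that of light on this design. At CT22 both arrays had a high level and the differences were -0.07 and 0.12, but this is 1 array per group, and the pair also differed in tissue markers (neuron sum of 25875 in light and 13251 in the dark). Both calls were also lost without the pair of CT2, CT6, CT10, CT14 or CT18, with an adjusted p between 0.0672 and 0.187. Without the CT22 pair they stayed, at 0.00768 for rpl35a and 0.0246 for rpl31.

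**Figure D2:**
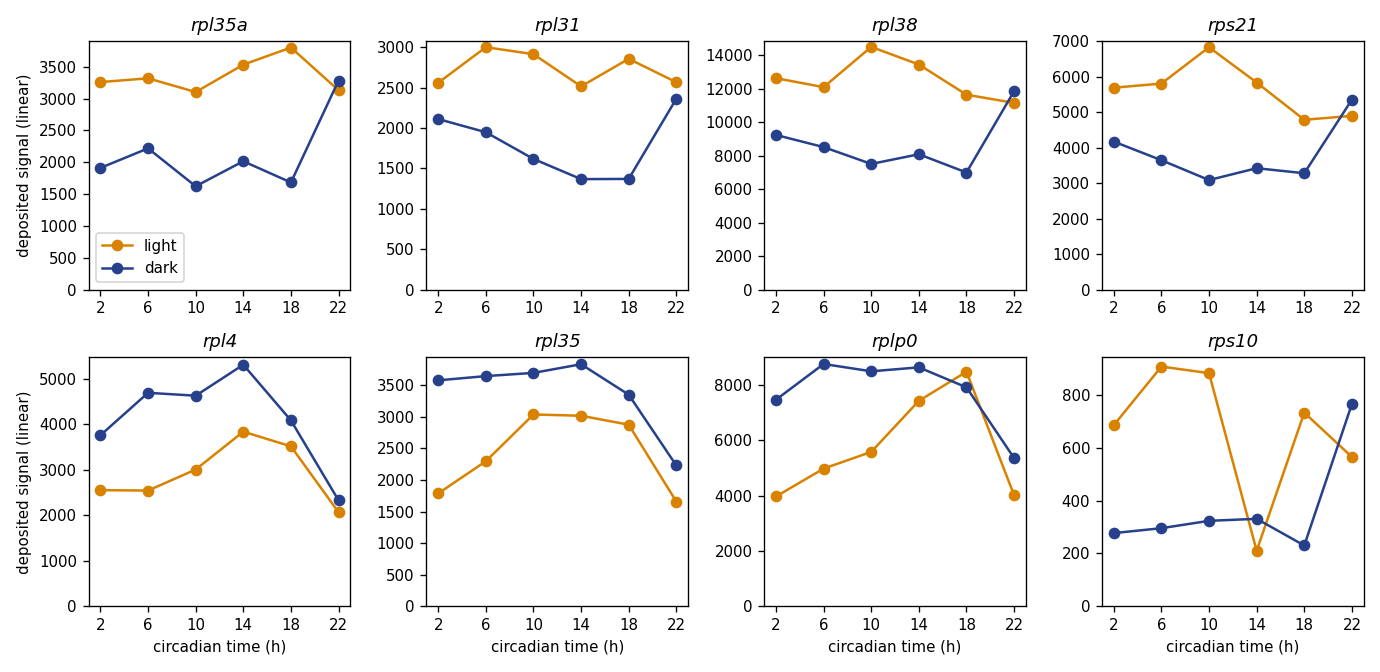
Deposited signal on a linear axis against circadian time for 8 ribosomal protein genes, light in orange and dark in blue, 1 array per point. In rpl35a, rpl31, rpl38 and rps21 the light points lie above the dark points from CT2 to CT18 and close to them at CT22; in rpl4 and rpl35 they lie below at every time.

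Among the other large subunit members with the highest light differences, rpl38 encodes a protein that mice need for translating certain Hox messenger RNAs. Its signal was 11163, 12374 and 14514 at the lowest, median and highest light array, against 6999, 8305 and 11868 on the dark arrays. Again the dark array of CT22 was the only dark array inside the light range. The difference was 0.55 ± 0.15 (adjusted p = 0.0752), which did not pass the threshold. The next, rpl22 and rpl13, differed by 0.47 ± 0.19 and 0.43 ± 0.19 (adjusted p = 0.219 and 0.272), and at CT22 their differences were -0.23 and -0.40.

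At the other end of the large subunit were rpl10 (which joins the subunit late, in the cytoplasm), rpl4 (part of the wall of the exit tunnel), rpl35 (at the tunnel exit), rplp0 (the base of the stalk that recruits translation factors) and rpl28. Signals of rpl4 were 2068, 2780 and 3840 at the lowest, median and highest light array, against 2330, 4359 and 5311 on the dark arrays. The ranges overlapped, but at each time the light array was the lower. Its difference was -0.49 ± 0.13 (adjusted p = 0.0808). For rpl35 the signals were 1658, 2586 and 3037 in light and 2229, 3611 and 3832 in the dark, with only the dark array of CT22 inside the light range. Its difference was -0.49 ± 0.14 (adjusted p = 0.0876), also lower at all 6 times.

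The stalk protein gene rplp0 had signals of 3970, 5280 and 8480 in light and 5357, 8206 and 8761 in the dark. The groups overlapped, and light was the higher at CT18. The difference was -0.48 ± 0.15 (adjusted p = 0.125), and rpl10 and rpl28 had -0.52 ± 0.16 and -0.48 ± 0.14 (adjusted p = 0.105 and 0.109). With quantile normalization, rplp0 passed the threshold at -0.57 (adjusted p = 0.0341). Another stalk protein gene, rplp2, stood on the other side with 0.27 ± 0.16 (adjusted p = 0.409). Its paralogue rplp2b had -0.17 ± 0.18 (adjusted p = 0.658). Lower in light at all 6 times were 3 of 74 members, rpl28, rpl4 and rpl35, against 4.29% of all kept probe sets. Higher in light at all 6 times were 2 of 74, rpl31 and 1 rps27.1 probe set, against 5.97%. Neither share, 4.05% and 2.7%, exceeded that of all probe sets.

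Other large subunit members with known further roles did not pass the threshold. Rpl5 and Rpl11, which in mammals bind Mdm2 when ribosome assembly is disturbed, had differences of -0.46 ± 0.15 for rpl5a (adjusted p = 0.15), -0.30 ± 0.16 for rpl5b (0.352) and -0.18 ± 0.16 for rpl11 (0.588). For rpl13a, the common reference gene, the difference was -0.25 ± 0.15 (adjusted p = 0.412) over a light range of 1932 to 4356 and a dark range of 2286 to 3923. For rpl10a it was -0.40 ± 0.16 (adjusted p = 0.215).

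In the small subunit none of 30 probe sets was called in either direction, and 11 had an unadjusted p under 0.05, 7 of them higher in light. The largest difference was that of rps10, a protein on the head of the subunit. Its signal was 210, 710 and 908 at the lowest, median and highest light array, against 230, 310 and 766 on the dark arrays. Here the light array of CT14 and the dark array of CT22 each lay far from the rest of its group, with the lowest light and the highest dark value. The difference was 0.80 ± 0.30 (adjusted p = 0.193), positive at 4 of 6 times. Its neighbour in this pattern was rps9, a protein near the messenger RNA channel, with 0.54 ± 0.24 (adjusted p = 0.272), and r between the 2 genes over the 12 arrays was 0.87.

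The gene rps21 had signals of 4783, 5745 and 6827 in light and 3084, 3531 and 5349 in the dark. As for rpl38, the only dark array in the light range was that of CT22, where the difference was -0.13. Over all times it was 0.57 ± 0.16 (adjusted p = 0.0824). The pair rpl38 and rps21, which belong to different subunits, had the closest match of any 2 members over the arrays, with r = 0.98.

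At the lower end of the small subunit, rps4x, rps7, rps6 (the substrate of the S6 kinases), rps3 (at the messenger RNA entry) and rps15 had differences of -0.46 ± 0.21, -0.44 ± 0.19, -0.43 ± 0.19, -0.42 ± 0.16 and -0.35 ± 0.17. None passed, with an adjusted p of 0.274, 0.25, 0.276, 0.198 and 0.297. Of these, rps15 varied most, from 4137 to 10174 in light and from 4454 to 15022 in the dark, and its CT10 arrays were the lowest of both groups. At the upper end, rps15a and the dimmest rps27.1 probe set had 0.38 ± 0.15 and 0.39 ± 0.17 (adjusted p = 0.21 and 0.253). The human counterparts of rps14 and rps19 are linked to anaemias in which ribosome assembly fails, and here these genes had -0.31 ± 0.16 and -0.03 ± 0.19 (adjusted p = 0.337 and 0.955). For rpsa, also known as the laminin receptor, the difference was 0.01 ± 0.16, and for rps27a, made as a fusion with ubiquitin, -0.16 ± 0.15 (adjusted p = 0.983 and 0.618).

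Genes with several probe sets allowed a check within a gene. The 3 rps27.1 probe sets had light differences of 0.39, 0.33 and 0.26 and correlated with each other over the arrays with r of 0.65 to 0.73. The 2 rpl3 probe sets had mean signals of 7832 and 573, differences of -0.05 ± 0.14 and -0.33 ± 0.23 and r = 0.38. Paralogues differed in how alike they were: r was 0.70 for rpl5a and rpl5b, 0.78 for rps26 and rps26l, 0.36 for rplp2 and rplp2b, and between -0.04 and 0.13 for the rps27.1 probe sets and rps27.2. For the rps27.1 probe sets and rps27l it was 0.47, 0.61 and 0.82. These paralogues were picked by name after values were seen, and probes may also bind a close copy. The rps19bp1 probe sets had light differences of 0.02 ± 0.21 and 0.16 ± 0.18 (adjusted p = 0.972 and 0.681).

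By time, the light differences of the members were mostly positive at CT18 and mostly negative at CT22. The number of the 74 with the higher signal in light was 22 at CT2, 33 at CT6, 45 at CT10, 43 at CT14, 67 at CT18 and 6 at CT22. The medians were -0.22, -0.11, 0.13, 0.05, 0.43 and -0.32 on the log2 scale, while those of all kept probe sets lay between -0.03 and 0.08. Both subunits did this alike: at CT18 light was higher in 38 of 44 large and 29 of 30 small subunit probe sets, and at CT22 in 4 of 44 and 2 of 30. Each time has 1 array per group, so a time's difference has no replicate check. The members of an array share its RNA and its scaling, and their count is not a test. With quantile normalization, light was higher in 58 of 74 at CT18 and in 10 of 74 at CT22, with medians of 0.31 and -0.25.

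The 2 arrays farthest from the rest in these counts were both light arrays. As the median deviation of the 74 probe sets from their own 12-array means, the light arrays had -0.16 at CT2, 0.06 at CT6, 0.14 at CT10, 0.12 at CT14, 0.27 at CT18 and -0.43 at CT22. The dark arrays had 0.14, 0.11, 0.00, 0.04, -0.10 and -0.07 at the same times. The members' share of all summed signal was 4.7% on the light array of CT22 and 7.2% on that of CT18, and 5.8 to 6.8% on the dark arrays.

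Markers of neighbouring tissue differed between the paired arrays at these times. Brain markers had the opposite sign to the members. Red blood cell and skin markers had the same sign, though the skin median at CT22 was only -0.10. Skeletal muscle and leukocyte markers were higher in light at both times, with medians of 1.19 and 0.32 at CT18 and 0.25 and 0.16 at CT22. The summed signal of 13 neuron markers was 13243 in light and 27132 in the dark at CT18, and 25875 in light and 13251 in the dark at CT22. At CT14 it was 12777 in light and 22284 in the dark, a smaller gap than at CT18. The median light difference of the neuron markers was -0.65 at CT14 and -0.90 at CT18, and that of the members at CT14 was 0.05. The summed signal of 6 oligodendrocyte markers was 1512 in light and 3165 in the dark at CT18, and 2020 in light and 1291 in the dark at CT22. At CT14 the oligodendrocyte sum was 1426 in light and 1373 in the dark. Over all arrays the neuron sum ranged from 12520 to 25875 in light and from 11815 to 27132 in the dark, and the oligodendrocyte sum from 1310 to 2020 in light and from 1291 to 3165 in the dark. The sum of 16 pineal photoreceptor markers was 60114 in light and 36588 in the dark at CT18, and 55435 in light and 51524 in the dark at CT22. The median light differences of these markers were 0.63 and -0.11 at the same times. For 19 skin markers the sum was 5812 in light and 2254 in the dark at CT18, and 3592 in light and 3724 in the dark at CT22. The sum of 10 red blood cell markers was 12027 in light and 7023 in the dark at CT18, and 6764 in light and 10293 in the dark at CT22, within ranges of 3538 to 12027 in light and 5356 to 10293 in the dark. Over the 6 times, markers of muscle, skin and leukocytes were mostly higher in light, but those of brain and red blood cells were not. Higher were 6 of 6 skeletal muscle genes (sums of 620 to 1203 in light and 306 to 606 in the dark). So were 17 of 19 skin genes (3033 to 12094 in light and 2254 to 8204 in the dark). The same held for 9 of 10 leukocyte genes (3364 to 7871 in light and 3165 to 5972 in the dark). Of the neuron markers 3 were higher and 10 lower (median -0.11). Red blood cell markers had 4 higher and 6 lower, and oligodendrocyte markers 3 and 3. The part of tissue makeup in the light differences, at CT18 and CT22 or over all times, was not tested.

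**Figure D3:**
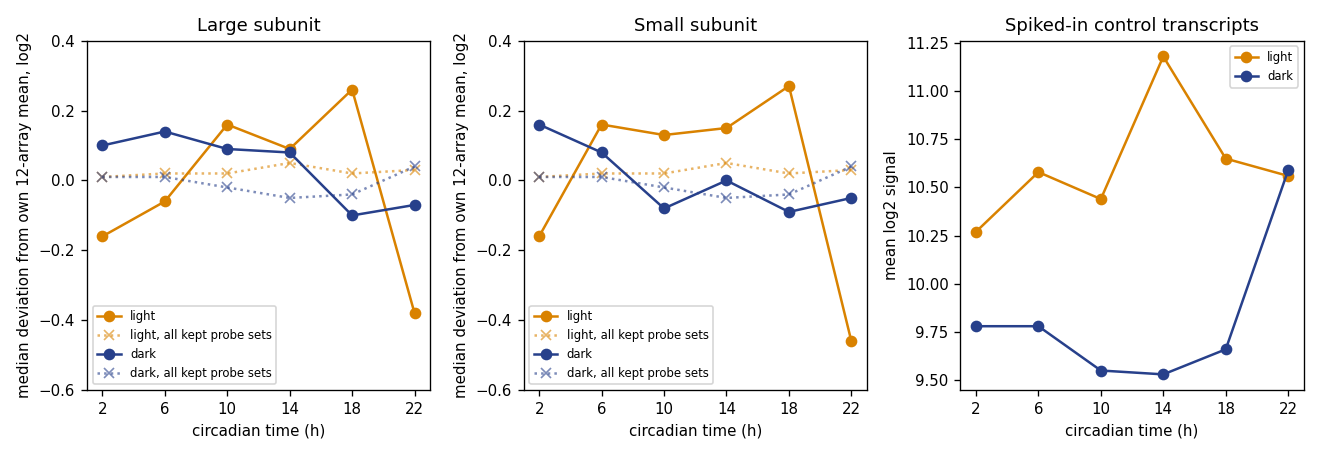
Median deviation of large subunit and small subunit probe sets from their own 12-array means (left and middle, log2, solid lines; dotted lines show all kept probe sets) and mean log2 signal of the spiked-in control transcripts (right), by circadian time, with light in orange and dark in blue. Both subunits are highest on the light array of CT18 and lowest on that of CT22, and the spiked-in level of the dark array of CT22 (10.59) lies among those of the light arrays.

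Correlations between members over the arrays were mostly positive, and some were negative. Over 2701 pairs of the 74, the median r over the 12 arrays was 0.32 (range -0.79 to 0.98), with 34.1% of pairs above 0.5 and 3.8% below -0.5. Over all kept probe sets the median was 0.00, with 8.2% and 7.5%. Pairs within the large subunit (median 0.30), within the small subunit (0.34) and between the subunits (0.33) were alike. All pairs share the same arrays and their scaling. The first principal axis of the members held 45.1% of their variance, against 24.4% for all kept probe sets. The members are fewer and brighter than most kept probe sets, so the comparisons of pairs and of this axis are not matched. One end of the members' axis was led by rps10, rps9, rpl35a, rpl31, rps21 and rpl38, and the other by rpl11, rpl28, rpl4, rpl17 and rplp0. Between genes of opposite ends r was, for example, -0.68 for rpl35a and rpl4, a value that their choice from the ends of the axis makes likely.

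The light arrays scored 0.30, 0.22, 0.12, -0.16, -0.05 and 0.43 on that axis from CT2 to CT22. The dark arrays scored between -0.26 and -0.19, except that of CT22 with 0.26. The dark array of CT22 scored among the light arrays, and its spiked-in level also lay among theirs. But the light array of CT14, with the highest spiked-in level (11.18), scored -0.16, and that of CT18 (10.65) scored -0.05. The part of that level in the axis was not tested. As a description added after the data were seen, all 7 arrays with the high spiked-in level lay above all 5 with the low one in 5 of 74 members, rpl13, rpl31, rpl35a, rpl38 and rps21, against 3.03% of all kept probe sets. They lay below in 1 member, rpl35, against 1.9%.

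**Figure D4:**
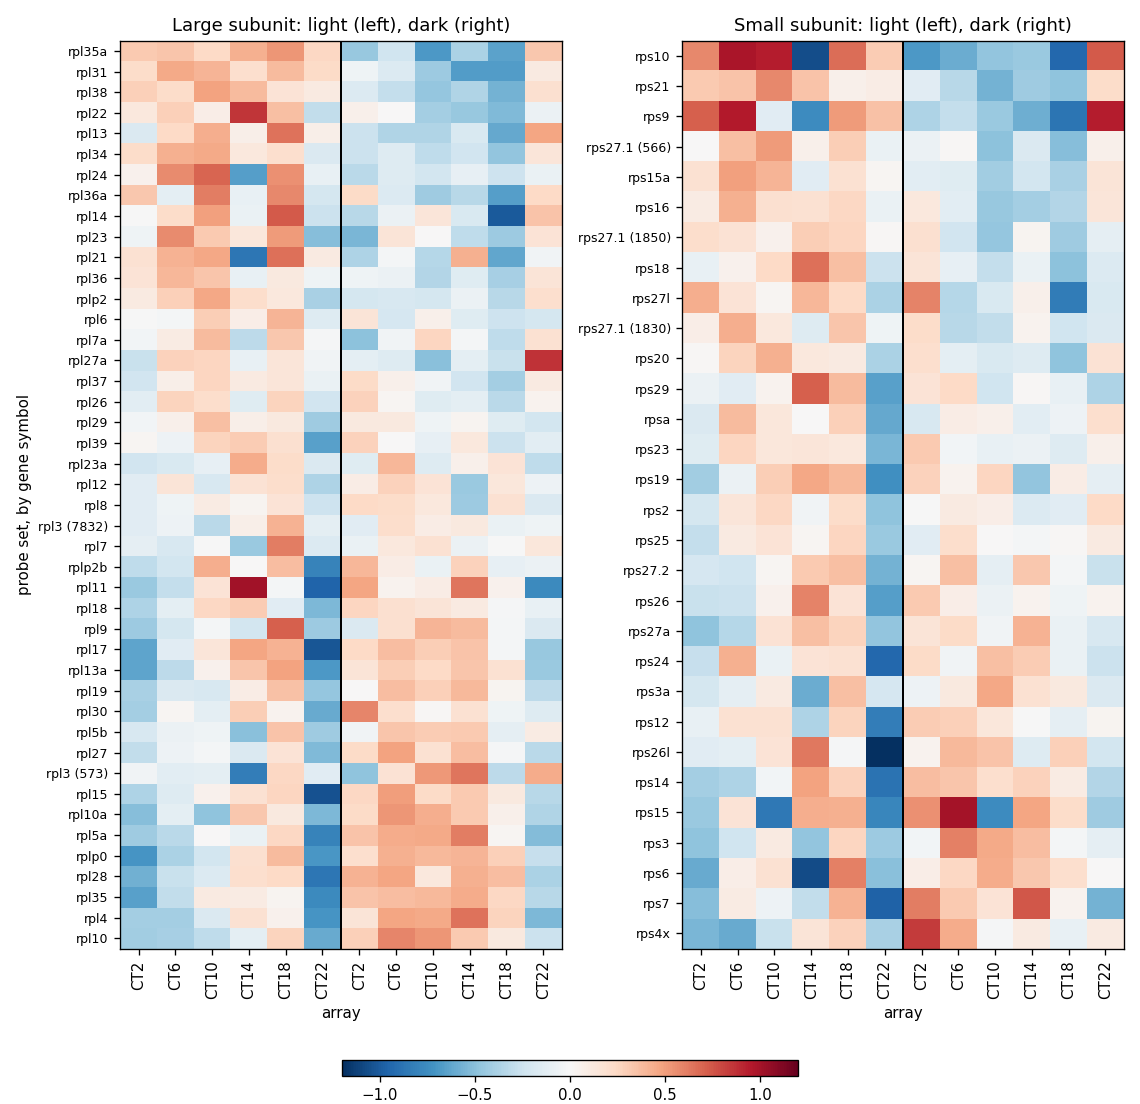
Deviation of each ribosomal protein probe set from its own 12-array mean, log2(signal + 13), with large subunit members at the left and small subunit members at the right, ordered by light difference; in each panel the 6 light arrays stand left of the 6 dark arrays, each from CT2 to CT22. The light array of CT22 is low in most members, and in the top rows the dark array of CT22 is high like the light arrays.

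No ribosomal protein probe set was called for circadian time, where 1.98% of all kept probe sets were. With a 24 h cosine fitted beside light in limma, the smallest adjusted p was 0.161, for rpl35, and 11 of 74 had an unadjusted p under 0.05 (14.9%, against 15% of all kept probe sets). Cosine amplitudes had a median of 0.15 and ranged from 0.06 to 0.54, against a median of 0.20 over all kept probe sets. The largest in the large subunit were those of rpl11, rpl17 and rpl13a, with 0.52 ± 0.16, 0.45 ± 0.13 and 0.38 ± 0.12 (SE), and fitted peaks at CT12.1, CT11.7 and CT12.9. For rpl11 the signal was lowest at CT22 in both groups, with 1476 in light and 1701 in the dark, and highest at CT14, with 5813 and 4535. In the small subunit they were those of rps9 (0.54 ± 0.17, peak CT1.1), rps26l (0.38 ± 0.14, peak CT10.8) and rps10 (0.34 ± 0.22, peak CT2.1).

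Though none passed, the fitted peaks of the members were not spread evenly. They lay between CT8 and CT16, a window chosen after the values were seen, in 47 of 74 members (63.5%) and in 31.4% of all kept probe sets. In the 6 dark arrays alone the share was 40.5%, against 31.2%, and without the CT22 pair 55.4%, against 33.5%. The members share the same arrays and vary together, so an array can move many fitted peaks, and their count is not a test.

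The light response of no member was shown to vary with circadian time. A 24 h rhythm in the light difference, tested in limma as an interaction, called none of the 74, and 0% of all 9301 kept probe sets. The smallest adjusted p among the members was 0.489, for rps4x, and 7 of 74 had an unadjusted p under 0.05 (9.46%, against 9.29% of all kept probe sets). For subjective night (CT14, CT18 and CT22) against subjective day (CT2, CT6 and CT10), limma called 0% as well, with an adjusted p of 1 for every member. An unadjusted p under 0.05 was found for 5 of 74 members (6.76%, against 3.18%), the smallest being 0.0129 for rpl10. The night against day term places CT18 and CT22 in the same group, so it cannot follow a change of sign between them. The 24 h rhythm can change sign between neighbouring times, but only as part of a smooth 24 h wave.

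Other genes of ribosome production and its control showed few calls by count. Over all kept probe sets, 1.58% were called higher in light, 0.731% lower and 1.98% for circadian time. Of 75 measured genes of ribosome biogenesis, such as the nucleolar proteins fbl and ncl, 47 were higher and 28 lower in light (median 0.05), and none was called for light or time. Of 52 genes of mitochondrial ribosomal proteins, 19 were higher and 33 lower (median -0.11), with no call. The ribosomal protein-like genes rpl7l1 and rpl22l1, left out of the members by name, had -0.23 ± 0.15 and -0.05 ± 0.13. Another list held 28 measured genes, mostly of translation, chosen by name for the same pyrimidine start, which was not checked here. Among them were also vim, hnrnpa1b and npm1a, the last of which is in the biogenesis list too. Of the 28 genes, 10 were higher and 18 lower in light (median -0.06). Of the 28, 1 was called lower, eif3ha, an initiation factor subunit. Its signal was 120 to 197 in light and 153 to 302 in the dark, lower in light at all 6 times. The difference was -0.59 ± 0.14 (adjusted p = 0.0494). It was -0.17 ± 0.25 with the class of spiked-in level in the model, a fit that rests on 1 dark array. When each time was left out, the adjusted p of eif3ha in limma ranged from 0.0416 to 0.185. With the spiked-in level as a covariate it was 0.485. From CT2 to CT22 this list's medians were -0.10, -0.24, -0.15, 0.01, 0.11 and -0.30, and those of the ribosome biogenesis list were 0.02, -0.03, 0.00, 0.24, 0.24 and -0.15. Both lists had the sign of the ribosomal proteins at CT18 and CT22, as did the medians of all kept probe sets (0.06 and -0.03). At CT10 the first list had the opposite sign, and at CT2 the biogenesis list. The mitochondrial ribosomal protein list had -0.05 at CT18 and -0.15 at CT22, and the list of the TOR pathway and translation control had -0.08 and -0.01.

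Of 26 genes of the TOR pathway and of translation control, 9 were higher and 17 lower in light (median -0.12), and none was called for light. For circadian time 2 of the 26 were called, where 1.98% of all kept probe sets were: deptor, an inhibitor of TOR, with an amplitude of 0.55 ± 0.11 and a peak at CT19.9 (adjusted p = 0.0352), and rheb, an activator of TOR, with 0.42 ± 0.09 and a peak at CT1.0 (adjusted p = 0.0427). Signals of deptor were 152 to 405 in light and 190 to 478 in the dark, lowest at CT10 in both groups. Signals of rheb were 678 to 1162 in light and 623 to 1408 in the dark, highest at CT2 and lowest at CT14 in both. Each call was lost in many alternatives. When each time was left out, the adjusted p of rheb in limma ranged from 0.0734 to 0.276, never below the threshold. That of deptor ranged from 0.023 to 0.282 and stayed below the threshold only without CT6. With the spiked-in level as a covariate, rheb had 0.0522 and deptor 0.0569. Both calls stayed with quantile normalization and without the filter on low values.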

How the data were processed

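Deposited values are intensities, linear signals that the authors made with GCOS and MAS5, per the submitters' processing notes; their trimmed mean was 200.035 to 200.042 on each array. Per the labels' protocols, RNA was amplified in 2 rounds from an oligo(dT) primer, so signals come mainly from 3' ends. Here 13 was added before log2, which understates changes of weak probe sets, and 9301 of 15502 non-control probe sets with a mean log2 value of at least 6.16 were kept. Tests used limma 3.58.1 in R 4.3.3 (two-sided, intensity trend) with Benjamini-Hochberg adjustment over all kept probe sets. The light test had circadian time as a block (5 residual degrees of freedom), so the times act as replicates; the deviations of same-time arrays correlated with r of -0.05 to 0.30. Steps were tested on simulated data. Members and lists were chosen with earlier results of these data known. Named are called members, the extremes of light difference, amplitude, signal and spread in each subunit, genes with several probe sets, names listed for their roles and called list genes. No sequences or positions are given.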

Additional observations from a re-analysis of the deposited data

Results flagged for a closer look

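Groups of 6 arrays, light or dark and mostly those of named probe sets, were examined for an array far from the others. By Dixon's test 9 of 100 groups had such an array, where chance gives about 1 in 20. That share is no fair comparison here, since some probe sets were named for their spread or extreme values and all share the same 12 arrays. Values are log2(signal + 13). The dark array of CT22 stood apart 6 times. It was the lowest dark array for rpl13a (11.17, others 11.77 to 11.94), rpl35 (11.13, others 11.72 to 11.91) and rplp0 (12.39, others 12.87 to 13.10). It was the highest for rpl27a (9.35, others 7.98 to 8.36), rps10 (9.61, others 7.93 to 8.43) and rps9 (11.91, others 10.10 to 10.69). The light array of CT14 was the lowest light array for rpl21 (8.13, others 9.10 to 9.65), the dim rpl3 probe set (8.31, others 9.0 to 9.39) and rps10 (7.80, others 9.18 to 9.85). These are also the arrays with the highest spiked-in level of the dark group (10.59) and of the light group (11.18). The part of that level in these values was not tested.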

How the results depend on the processing

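The count of members called higher in light, 2, was 0 without the filter on low values, where 0.761% of all non-control probe sets were called. With the spiked-in level as a covariate it was 0, against 0.0538% of all kept probe sets. Fits with the class of that level, or in the higher-level arrays alone, compare light with 1 dark array, so their counts are not given. When each time was left out, the count was 5 without CT22 (rpl31, rpl34, rpl35a, rpl38 and rps21), where 2.32% of all kept probe sets were called higher. It was 0 without any other time, against 0.624 to 0.892%. With no replicate block the count called higher was 2, against 1.04%, and the count called lower was 0, against 0.323%. The adjusted p of rpl35a ranged from 0.00768 to 0.999 and that of rpl31 from 0.0246 to 0.993 over 14 alternatives, and each was called in 5. The count called lower in light, 0, was 1 with quantile normalization (rplp0), against 0.602% of all kept probe sets. The count for circadian time, 0, ranged from 0 to 1 when each time was left out, with 1 without CT2 (rpl11, adjusted p = 0.0316). Without CT2, 1.13% of all kept probe sets were called for circadian time. Counts for a light response that varies with time were 0 under every alternative run. The small subunit's median light difference, -0.034, was -0.332 with the spiked-in level as a covariate and -0.415 at CT22 alone. The large subunit's, -0.051, was -0.235 and -0.275 under the same settings. The cause of these changes was not tested. Values of named members, with cosine amplitudes among them, changed by less than the spread between times, or kept their call, in 1232 of 1300 cases. Only rpl35a and rpl31 had a call to lose. A call was lost in 18 cases, all of them light differences of these 2 genes. In 46 other cases a value moved by more than that spread, and in 4 a call was gained. The pairing by time comes from the labels, and the arrays' correlations do not bear it out. Precision is limited by 1 array per time and group, and by spiked-in levels that separate all but 1 dark array from the light arrays.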
